A study of Mus musculus with 18 samples.

Results

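Liver small RNA of female mice was sequenced to describe fragments of the mitochondrial tRNA-arginine (mt-TR), called tRNA-derived fragments (tRF). The fragments described here are those that reach the last encoded base of mt-TR and lack 1, 2 or all 3 nt of the CCA tail, which is not encoded in the mitochondrial DNA (mtDNA). They were chosen by their end alone, whatever their first base, and make up 142 of the 679 rows in the table. A row can hold reads of mtDNA types whose sequences differ in length, so it is not always 1 sequence. The 142 rows covered 194 combinations of mtDNA type, first base and end. These rows held 2867 of 121943 reads, or 2.35%. Of the 142, 61 lacked 1 nt and ended with CC, 49 lacked 2 nt and ended with a single C of the tail, and 32 lacked all 3 nt and ended with the encoded A. Another 63 rows, with 16343 reads, ended with the whole CCA and served for comparison.

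Strain names give the nuclear genome first and the mtDNA second, where F stands for FVB/NJ, C for C57BL/6J and H for C3H/HeN. The strains FF, CC and HH were wild type. HC, CH and CF were mitochondrial-nuclear exchange (MNX) mice, with the C3H/HeN nucleus and C57BL/6J mtDNA in HC, the C57BL/6J nucleus and C3H/HeN mtDNA in CH, and the C57BL/6J nucleus and FVB/NJ mtDNA in CF. Each strain gave 3 libraries, so 6 libraries shared each mtDNA type. Intact RNA was pooled before the libraries were made and the number of animals in a pool is not given in the sources used here, so a p-value measures the spread between libraries of pooled RNA, which may be technical. All RNA was treated to take off certain base methylations, to repair blocked ends and to remove amino acids from 3′ ends. The liver label could not be checked against marker genes, because the table holds fragments of 1 tRNA.

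Mitochondrial tRNAs are cut out of long transcripts, and the 3′ cut, made by the RNase Z enzyme ELAC2, leaves the last encoded base, called the discriminator, at the end. The nucleotidyltransferase TRNT1 then adds C, C and A in turn, and the terminal A carries the amino acid. A molecule that ends at the discriminator or with 1 or 2 C therefore has the same end as a tRNA whose tail is not yet complete and as one whose tail has been shortened, and a count of reads does not separate these. TRNT1 can also rebuild a tail that has lost bases.

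In mm10, mt-TR is encoded by mt-Tr (ENSMUSG00000064361.1), whose only exon of 68 nt spans 9808 to 9875 of chromosome M, on the plus strand. With the tail, the mature sequence of the H type is the longest with 73 nt, beside 72 nt for F and 71 nt for C, because a run of T near the start is 3 nt long in C and F and 4 nt in H, and the run of A that follows is 8 nt long in C and 9 nt in F and H. The C sequence was read from GENCODE M21, and the F and H sequences were those of the study. The 3 mature sequences are shown with the tail in capitals, because the sequences described here differ from them only at that tail and at the first base.
C mature: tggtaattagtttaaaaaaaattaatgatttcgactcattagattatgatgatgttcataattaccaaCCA
F mature: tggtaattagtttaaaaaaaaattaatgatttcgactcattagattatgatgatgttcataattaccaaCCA
H mature: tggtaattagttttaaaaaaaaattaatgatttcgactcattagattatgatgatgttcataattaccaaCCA

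The most abundant fragment with an incomplete tail began at nt 14 of C, the first A of the A run (chrM:9821 of mm10), and is shown with each of its ends, the part of the tail that is present again in capitals. Its 4 forms differ by 1 nt each.
C from nt 14, whole tail: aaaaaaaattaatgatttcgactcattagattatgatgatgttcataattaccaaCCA
C from nt 14, lacks 1 nt: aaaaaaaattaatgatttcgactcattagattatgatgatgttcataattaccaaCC
C from nt 14, lacks 2 nt: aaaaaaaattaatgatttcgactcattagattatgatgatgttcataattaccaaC
C from nt 14, lacks 3 nt: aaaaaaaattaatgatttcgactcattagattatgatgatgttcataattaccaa

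The fragment from the first A of the run that lacks 1 nt, at nt 14 of F and nt 15 of H, has the same 58 letters in both types, and 1 A more than in C. The whole C sequence without 2 or 3 nt of its tail, from nt 1, is also shown, because it is the longest form in which an incomplete tail could be listed.
F and H from the first A, lacks 1 nt: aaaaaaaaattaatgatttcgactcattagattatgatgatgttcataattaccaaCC
C from nt 1, lacks 2 nt: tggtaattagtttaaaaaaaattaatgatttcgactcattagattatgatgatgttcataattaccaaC
C from nt 1, lacks 3 nt: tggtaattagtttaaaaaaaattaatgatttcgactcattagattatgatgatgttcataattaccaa

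The table lists reads of 40 to 69 nt. Its libraries held 189 to 23805 reads, and 4 libraries held fewer than 1000. In each type the MNX strain had fewer reads than the wild type on average, with means of 3394 in HC against 18859 in CC, 1455 in CF against 11224 in FF, and 914 in CH against 4802 in HH. Because of the upper length, the whole mt-TR with its tail could not be listed in any type. A ratio of an incomplete end to the CCA end was therefore formed only over first bases for which the whole tail and all 3 incomplete ends could be listed in every type. These began at nt 5, the limit of H, although C could be listed from nt 3 and F from nt 4. They went on to nt 29 for C, 30 for F and 31 for H. The ratio is given as reads per 100 CCA-ended reads of the same first bases and library.

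Most incomplete tails lacked a single nt. CC-ended reads numbered 2557 and were present in all 18 libraries. Reads that lacked 2 nt numbered 222, in 15 libraries, and reads that lacked all 3 nt numbered 88, in 12 libraries. By type, the reads that lacked 1, 2 and 3 nt numbered 1507, 113 and 23 in C libraries, 351, 33 and 5 with F mtDNA, and 699, 76 and 60 with H mtDNA. The C libraries thus held most of the reads of the first 2 kinds, but they also held 66759 of all 121943 reads. The H libraries held most of those that lacked the whole tail, although H had the fewest reads in all, 17148. H also held 8066 of the 16343 CCA-ended reads.

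The fall in abundance from 1 to 3 missing nt was tested within libraries, over first bases for which ends up to 6 nt short could all be listed in every type. CC-ended reads stood at 17.8 ± 18.7 per 100 CCA-ended reads (SD, n = 18), reads that lacked 2 nt at 1.32 ± 0.974, and reads that lacked 3 nt at 0.425 ± 0.440. The ratio was higher for 1 missing nt than for 2 in 18 of 18 libraries (difference of 16.5, permutation test, p = 4.00e-05, adjusted p = 0.00012 over 3 tests). It was higher for 2 missing nt than for 3 in 13 libraries and lower in 2 (difference of 0.899, permutation test, p = 0.00182, adjusted p = 0.00182).

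The end without any tail was less frequent than the mean of 3 ends inside the encoded sequence. Ends 4, 5 and 6 nt short of the mature end lie within the gene. The sequence 4 nt short ends with ACCA that is wholly encoded, and should not be taken for a tailed end. Over all libraries the ratios of these ends were 2.0 ± 1.16, 1.61 ± 2.04 and 0.111 ± 0.199 per 100 CCA-ended reads (SD, n = 18), so the frequencies of the 3 encoded ends were themselves uneven. Reads that lacked exactly the tail were lower than the mean of these 3 ends in 16 libraries and higher in 1 (0.425 against 1.24 per 100 CCA-ended reads, permutation test, p = 0.00016, adjusted p = 0.00024). In these means the shortfall was against the ends 4 and 5 nt short, since the end 6 nt short was the rarest of all. By type, the end without a tail stood at 0.443 in C, 0.147 in F and 0.684 in H. The end 5 nt short stood at 3.05, 0.966 and 0.825. In the mean of HH the end without a tail was the higher of these 2, at 0.879 against 0.623 (n = 3), though not in replicate 2.

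As a share of all reads listed, CC-ended reads were most frequent in the libraries with H mtDNA. In HH they made up 5.03, 1.97 and 6.04% of reads in the 3 replicates, and in CH 3.14, 3.45 and 5.44%. In CC they made up 3.65, 1.96 and 1.66%, and in HC 2.86, 1.03 and 2.21%. The lowest shares were those of FF, at 0.649, 0.783 and 0.916%, while CF held 3.25, 1.44 and 2.65%. The values of the types overlapped. Counting error alone was wide in the smallest libraries, with a 95% Wilson interval of 1.14 to 6.04% for CF replicate 3 against 1.5 to 1.83% for CC replicate 3.

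The CC-ended share averaged 4.18 ± 1.56% over the 6 H libraries, 2.23 ± 0.921% over those of C and 1.61 ± 1.08% over those of F (SD, n = 6). The C mean was 1.95 percentage points below that of H and the F mean 2.56 points below, but neither difference passed the test after adjustment over 18 tests of shares and ratios (exact permutation test, p = 0.0303 and 0.0130, adjusted p = 0.249 and 0.234). C and F differed by 0.615 points (exact permutation test, p = 0.312, adjusted p = 0.510). None of the 18 adjusted p-values was under 0.05, although 2 tests were under it before adjustment. The smallest p that 6 libraries against 6 can give is 0.00216. The comparisons of C and of F with H use the same H libraries and are not independent. C and H mtDNA were each sampled with the C and the H nucleus, but F mtDNA with the F and the C nucleus. Comparisons of F with either other type, here and below, therefore differ in the nucleus as well as in mtDNA.

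Relative to CCA-ended reads of the same first bases, H moved from the highest to the lowest of the types, and C stayed above F. The ratio of CC-ended to CCA-ended reads was 38.2, 20.2 and 80.7 per 100 in CC and 5.34, 7.74 and 23.3 in HC. It was 23.1, 15.1 and 17.5 in FF and 7.45, 13.3 and 4.40 in CF. In HH it was 7.18, 7.96 and 11.8, and in CH 6.90, 5.51 and 13.7. The 3 CC libraries and FF replicate 1 with HC replicate 3 held the highest ratios, and all H libraries lay at 13.7 or below.

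The mean ratio was highest with C mtDNA, at 29.2 ± 27.8, beside 13.5 ± 6.79 with F and 8.84 ± 3.18 with H (SD, n = 6). The difference of C from H was 20.4 reads per 100 (exact permutation test, p = 0.0519, adjusted p = 0.249), that of F from H 4.64 (p = 0.160, adjusted p = 0.320) and that of C from F 15.7 (p = 0.203, adjusted p = 0.366). CC replicate 3 weighed heavily on the C mean, which was 18.9 ± 13.2 (n = 5) without it. The difference of C was then 10.1 from H and 5.46 from F. Without FF replicate 1, that of F from H was 2.70. The types differed in the denominator as well, since CCA-ended reads made up 52.9 ± 17.3% of H reads, 22.7 ± 25.9% of F reads and 16.7 ± 18.1% of C reads. The high share and the low ratio of CC-ended reads in H stood beside this high share of CCA-ended reads.

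No difference between types in reads that lacked 2 nt passed the test by either measure. Their mean share was 0.352 ± 0.344% in H, 0.347 ± 0.435% in F and 0.196 ± 0.163% in C, and their ratio was 0.819 ± 0.813, 1.57 ± 0.648 and 1.31 ± 1.1 per 100 CCA-ended reads (SD, n = 6). The F share rests largely on CF replicate 3, with 2 of 189 reads, and was 0.205 ± 0.291% (n = 5) without it. The smallest adjusted p among these 6 tests was 0.268, for the ratio of F against H (exact permutation test). HC replicate 2 and CH replicates 1 and 2 held no such read, which allows a share of up to 0.194, 1.57 and 1.29% of their reads.

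Reads that lacked the whole tail were most frequent in H by both measures, though few in number. Their share was 0.265 ± 0.249% in H, 0.0669 ± 0.103% in C and 0.0314 ± 0.0659% in F. The C mean fell to 0.0257 ± 0.0235% without HC replicate 1 and the F mean to 0.00464 ± 0.00686% without CF replicate 1 (n = 5), so each rests largely on 1 library. The ratio was 0.635 ± 0.540 per 100 CCA-ended reads in H, 0.417 ± 0.293 in C and 0.130 ± 0.146 in F (SD, n = 6). The 3 HH libraries had ratios of 0.912, 0.653 and 0.901, and CH replicate 3 had 1.34, the highest of all, while CH replicates 1 and 2 held none. The ratio of F was 0.505 below that of H (exact permutation test, p = 0.0628, adjusted p = 0.249), and the share 0.234 points below (p = 0.106, adjusted p = 0.268). In C the difference from H was 0.218 in the ratio (exact permutation test, p = 0.413, adjusted p = 0.532). The F value rests on 5 reads in all.

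Strains that share their mtDNA and differ in the nucleus were compared next, 3 libraries against 3, for which no two-sided exact p can be below 0.1. FF and CF, which share F mtDNA, did not overlap in 3 of the 6 measures. CC-ended reads made up 0.783 ± 0.133% of reads in FF and 2.45 ± 0.922% in CF, and reads that lacked 2 nt 0.0468 ± 0.0303% and 0.648 ± 0.448% (SD, n = 3, exact permutation test, p = 0.1 for both). The ratio of CC-ended to CCA-ended reads went the other way, at 18.6 ± 4.13 per 100 in FF and 8.38 ± 4.52 in CF (exact permutation test, p = 0.1). CCA-ended reads made up 4.95 ± 1.78% of FF reads and 40.4 ± 27.0% of CF reads, also without overlap.

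HC and CC, which share C mtDNA, overlapped in all 6 measures. The ratio of CC-ended to CCA-ended reads was 12.1 ± 9.74 per 100 in HC and 46.3 ± 31.1 in CC (SD, n = 3, exact permutation test, p = 0.2). HH and CH, which share H mtDNA, were close in this ratio, at 8.98 ± 2.46 and 8.71 ± 4.39 (exact permutation test, p = 0.9), and overlapped in all 6 measures too. Whether the effect of the C or H nucleus differed between C and H mtDNA was tested over 400 arrangements. The ratio of CC-ended reads was 34.2 higher with the C than with the H nucleus in C mtDNA and 0.270 lower in H mtDNA, a difference of 34.5 (exact permutation test, p = 0.125, adjusted p = 0.550 over 6 measures). The other 5 measures had adjusted p-values of 0.550 to 0.655.

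Wild-type libraries had a higher ratio of CC-ended to CCA-ended reads than MNX libraries of the same mtDNA, by 14.9 per 100 on average over the 3 types (exact permutation test over 8000 arrangements, p = 0.0138, adjusted p = 0.0825 over 6 measures). The 9 wild-type libraries had a median of 17.5, from 7.18 to 80.7, and the 9 MNX libraries a median of 7.45, from 4.40 to 23.3. The difference did not pass after adjustment, and was 9.17 without CC replicate 3. It was 34.2 within C, 10.2 within F and 0.270 within H mtDNA, and wild type and MNX cannot be told apart from the nucleus within a type, nor from depth, which was lower in each MNX strain. The other 5 measures had adjusted p-values of 0.5505 to 0.5985.

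The completeness of the tail varied with the first base of the fragment. First bases were placed before the T and A runs, within them or past them, and the ratio of CC-ended to CCA-ended reads was compared within libraries. It was 20.1 ± 22.7 per 100 for starts within the runs, 10.6 ± 9.12 before them and 13.3 ± 13.3 past them (SD, n = 18). The ratio within the runs exceeded that before them in 16 of 18 libraries (difference of 9.55, permutation test, p = 0.00266, adjusted p = 0.00555 over 3 tests) and that past them in 14 (difference of 6.82, p = 0.0037, adjusted p = 0.00555). Starts past the runs and before them differed by 2.73 (permutation test, p = 0.142, adjusted p = 0.142). On a log2 scale both differences of the runs had an adjusted p of 0.0652 (differences of 0.61 and 0.40), so the calls depend on the scale.

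Starts within the runs had the highest mean ratio in each type, while the order of the other starts varied. In C, the ratio was 34.7 ± 35.0 within the runs, 16.2 ± 12.9 before and 22.7 ± 20.5 past them, and the runs exceeded the starts before them in 6 of 6 libraries (exact permutation test, p = 0.0312). In F, the ratios were 16.3 ± 10.2, 9.43 ± 6.15 and 8.50 ± 3.01, with the runs above the starts before them in 5 of 6 (exact permutation test, p = 0.156). In H, they were 9.43 ± 3.53, 6.10 ± 3.74 and 8.77 ± 4.35, again with 5 of 6 (exact permutation test, p = 0.125). The smallest p for 6 pairs is 0.0312.

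With reads pooled over the libraries of a type, the first A of the run had the highest ratio in each type. Library by library, its ratio exceeded that of the other first bases together in 5 of 6 C, 3 of 6 F and 5 of 6 H libraries. The exceptions were HC replicate 1, FF replicate 2, CF replicates 1 and 3 and CH replicate 1. Reads from that base were singled out after their values were seen and are given without a test. In C, 502 CC-ended reads from nt 14 stood beside 741 CCA-ended reads, a ratio of 67.7 per 100, while the other 24 first bases had a median of 20.5 and a highest value of 40, at nt 24. In F, nt 14 had 57 against 263 reads, a ratio of 21.7 against a median of 12.2, but nt 25 came close with 21.4, and 27 of the 57 reads came from FF replicate 1. In H, nt 15 had 100 against 567 reads, a ratio of 17.6 against a median of 8.67 and a next highest of 12.8 at nt 24.

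In CC, the CC-ended reads from the first A numbered 182, 83 and 158, beside 242, 174 and 107 CCA-ended reads, so in replicate 3 the incomplete form outnumbered the complete one. In HC they numbered 1, 5 and 73 beside 23, 20 and 175. The fragment thus had most of its reads in CC and in HC replicate 3. The first A held 37.8% of the matched CC-ended reads of C but 17.1% of the CCA-ended reads, with 18.8 and 11.9% in F and 15.9 and 8.22% in H. As follows from the ratios above, its part in the CC-ended reads was the larger in the same 5 of 6 C libraries, 3 of 6 F libraries and 5 of 6 H libraries.

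Without the first A, the ratio per 100 was 8.17 ± 2.54 for H, 12.4 ± 5.50 for F and 22.0 ± 19.8 for C (SD, n = 6), in the same order of types as with it. The difference of C from H was 13.8 (exact permutation test, p = 0.0801, adjusted p = 0.238). Within libraries, starts in the runs still exceeded those before them, in 15 of 18 (15.9 against 10.6, permutation test, p = 0.0123, adjusted p = 0.0368), but no longer passed against those past them (15.9 against 13.3, p = 0.115, adjusted p = 0.142). This setting was added after the data were seen. The start left out had the highest pooled ratio in each type and lies in the runs, and none was left out elsewhere. A smaller mean difference for the runs therefore follows largely from that choice.

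Other first bases with many CC-ended reads lay close by. In C these were nt 11, the first T of the T run, with 130 reads beside 529 with CCA, and nt 12 with 91 beside 312. In F they were nt 11 with 36 beside 217 and nt 13 with 25 beside 140. In H, nt 31, past the A run, had 55 beside 570, and nt 14 had 43 beside 465. CC-ended reads were present at all 25 matched first bases of C, all 26 of F and 26 of 27 of H, the exception being nt 6, where no CC-ended read stood beside 62 CCA-ended reads. Among these bases, reads that lacked 2 nt were present at 16, 17 and 23, and reads that lacked 3 nt at 12, 4 and 21.

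Fragments that lacked 2 or 3 nt were rare one by one. Among fragments that could be listed in all 3 types, with bases aligned so that the shorter runs were gapped at their left, the most abundant that lacked 2 nt was the one from nt 14 of C (nt 15 in F and 16 in H), with 33 reads. Of these, CC held 12, 0 and 7 and HC 0, 0 and 10, so 29 of the 33 came from C libraries. The fragment from nt 13 of C and F and nt 14 of H that lacked 2 nt had 14 reads, and that from nt 30, 31 and 32 also had 14. Of the fragments that lacked all 3 nt, the one from nt 13 of C and F and nt 14 of H had 8 reads, 6 of them in H. Those from nt 10 and from nt 9 had 7 reads each, 6 and 4 of them in H. By type, the fragment from the first A led those without a tail in H, with 9 reads.

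Whole mt-TR with an incomplete tail could be listed only where it was short enough. In C, 37 reads began at nt 1 and lacked 2 nt, which made this the most abundant C sequence of that kind. CC held 19, 9 and 4 of them and HC 2, 0 and 3. Another 4 reads from nt 1, 2, 1 and 1 in the CC replicates, lacked all 3 nt and so matched the encoded gene from its first to its last base. In contrast, a single read began at nt 2 and lacked 2 nt, while 13 began there and lacked 1. In F, 1 read from nt 1 lacked all 3 nt, in CF replicate 1. In H, no form from nt 1 within 3 nt of the mature end could be listed. CCA-ended and CC-ended reads from nt 1 are longer than the table lists, so no ratio could be formed for these sequences.

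Fragments were also tested one by one, with edgeR's quasi-likelihood test across all 67 homologous fragments that passed its filter on low counts, with the table total as library size. Only 5 of the 75 incomplete-tail fragments that could be listed in all 3 types passed that filter, all of them CC-ended, from nt 11, 14, 17, 29 and 31 of C. The filter asked for 2.56 reads per 1000 in 3 libraries, so a rare fragment could pass through the type in which it was high. Between C and H mtDNA, 30 fragments were called (44.8%), 5 higher in C and 25 lower, and among the 5 incomplete-tail fragments 1 was higher and 2 lower. Between F and H, 28 were called (41.8%), 3 higher and 25 lower, and 3 of the 5 were lower in F. Between C and F, 1 fragment was called (1.49%), and it was one of the 5. Of CCA-ended fragments, 28 were tested and 23 were lower in C and 22 lower in F than in H.

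The fragment from nt 29 of C, 30 of F and 31 of H, which begins past the A run and ends with CC, had 4.80 ± 2.98 reads per 1000 in H, 1.08 ± 0.905 in C and 0.589 ± 0.806 in F (SD, n = 6). Its values in HH were 4.25, 1.52 and 3.91 per 1000 and in CH 10.5, 4.31 and 4.31. It reached the level of the filter in 5 H libraries, 1 C library and no F library, and so was tested because it was high in H. It was lower in C than in H by a log2 fold change of -2.09 ± 0.65 (edgeR with SE, adjusted p = 0.0102), and lower in F by -2.78 ± 0.70 (adjusted p = 0.00414). In H all 6 libraries held it, whereas CC had 1.11, 0.803 and 0.714 and FF 0.207, 0.395 and 0.305 per 1000. The values of H overlapped with those of HC and CF, whose highest were 2.73 and 2.20.

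The fragment from nt 17 of C, 18 of F and 19 of H, inside the A run, had 31 reads with H mtDNA, 23 with C and 11 with F. Its log2 fold change was -2.07 ± 0.83 in C against H (SE, edgeR adjusted p = 0.0381) and -2.19 ± 0.84 in F against H (adjusted p = 0.0315). It reached the level of the filter in 3 libraries of H and in 1 each of C and F. Few reads stood behind these calls, which were lost in 11 and 9 of 17 other settings, among them both other scalings.

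The fragment from nt 14 of C had 6.18 ± 3.89 reads per 1000 in C, and its aligned partners, at nt 15 of F and 16 of H, 0.250 ± 0.203 and 1.46 ± 1.40 (SD, n = 6). No C library overlapped with an F library. The fragment reached the level of the filter in 5 C libraries, 2 H libraries and no F library, and so was tested because it was high in C. The log2 fold change was 4.39 ± 0.72 between C and F (SE, edgeR adjusted p = 1.81e-05), 1.68 ± 0.63 between C and H (adjusted p = 0.0268) and -2.71 ± 0.80 between F and H (adjusted p = 0.00924). The call between C and H was lost in 6 of 17 other settings. It was lost without CC replicate 1, HC replicate 3, CH replicate 1 or CH replicate 2 (edgeR adjusted p of 0.0546 to 0.209). It was also lost in libraries of at least 1000 reads and without the filter on low counts. With these gaps the first A of C was set beside the second A of F and H. When the gaps were placed at the right of the runs, so that first A stood beside first A, the values were 1.80 for C against F (adjusted p = 0.318) and 0.06 for C against H (adjusted p = 0.925), and no fragment was called between C and F. The F against H value was -1.74 there (adjusted p = 0.0231). With left gaps its call was lost under both other scalings, at -1.72 with TMM (adjusted p = 0.0702) and -0.69 with DESeq2 (adjusted p = 0.575). Without CH replicate 3 the left-gapped value was 0.73 for F against H (adjusted p = 0.880) and 5.13 for C against H (adjusted p = 0.0285), where the other CH libraries held none of its reads.

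These calls depend on how libraries are scaled. Over all 67 fragments, the median log2 fold change between C and H was -0.65 with table totals, 0.40 with TMM scaling and 1.5 with DESeq2, and the calls were 5 higher and 25 lower, 22 higher and 15 lower, and 35 higher and 5 lower. Between F and H they were 3 higher and 25 lower, 18 and 16, and 28 and 2. With DESeq2, 3 of the 5 incomplete-tail fragments were higher in C than in H and none lower, and the one from nt 29 stood at 0.17 (adjusted p = 0.819). With TMM it stood at -0.88 (adjusted p = 0.110), so its call between C and H was made only with table totals among the 3 scalings. Its call between F and H was kept with TMM, at -1.76 (adjusted p = 0.0205), and lost with DESeq2, at -0.93 (adjusted p = 0.238). The ratios to CCA-ended reads do not change with scaling.

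Within a type, edgeR called none of the 5 incomplete-tail fragments. In HC against CC, 0 of 67 fragments were called (0%), with 14 at an unadjusted p under 0.05, none of them among the 5, and 2 called with DESeq2. In HH against CH, 0 of 67 were called (0%), with none at an unadjusted p under 0.05 and none with DESeq2. In FF against CF, 23 of 67 were called (34.3%), all lower in FF and all CCA-ended. With TMM, 1 was higher and 7 lower, and with DESeq2 6 were higher and none lower, as the median of all 67 moved from -1.23 to -0.15 and 0.97. Without CF replicate 1, 1 fragment was called, and 7, 10 and 10 were called without FF replicate 1, FF replicate 2 and CF replicate 3. The fragment from nt 18 of F that lacked 1 nt came closest among the 5, at -3.11 ± 1.27 on the log2 scale (SE, edgeR adjusted p = 0.0505). The median over the 5 was -1.27, beside -1.23 over all 67 and -2.84 over the 28 CCA-ended fragments.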

How the data were processed

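Per the labels and the study's methods, UMIs were extracted (UMI-tools 1.1.6), adapters trimmed (cutadapt 5.0), reads mapped without gaps or mismatches (Bowtie 1.3.1) to the mature mt-TR of their own mtDNA type and collapsed by UMI, and sequences that also mapped elsewhere in mm10 were removed. The authors deposited counts, 1 for each row and library, without normalising them. Each of the 18 columns had its sample, and 0 columns stayed unmatched. Because mapping was exact, tails with any other base are not in the counts.

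The end was read from the number of missing tail bases in each listed sequence, and the first base from the missing bases at the 5′ end. All rows fit the mature sequence of their type once the extra bases of the F and H runs were left out. The listed rows do not show these bases, which were put back for the lengths and for the F and H sequences shown. Depth was 189 to 23805 reads. Intervals are 95% Wilson intervals, 3 reads were taken as the limit where none was found, and both cover counting error only. No libraries were identical. CH replicates 1 and 2, of 191 and 232 reads, differed by no more than sampling noise (chi-square p = 0.0984) but were too small to judge and were kept apart.

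Means of shares and ratios were tested by exact permutation, two-sided (924 arrangements for mtDNA types), or, within 18 libraries, by a permutation test with 100000 resamples, with Benjamini-Hochberg adjustment. Single fragments were tested with edgeR 4.0.16 (R 4.3.3, limma 3.58.1) in 1 fit over 6 groups, with DESeq2 1.42.0 as an alternative. SEs were the log2 fold change over the root of its F value. All else was computed in Python 3.11.15, numpy 2.4.6, pandas 2.3.3 and scipy 1.17.1. On simulated data for C against H, in which 10 of 67 fragments were given a log2 change of 4, edgeR found 100% of them and called 0.351% of the others. The incomplete-tail fragments called between C and H had smaller changes, of -2.09, -2.07 and 1.68. Recovery at that size, and under other scalings, was not tested. Each fragment was simulated independently of the others, around 1 mean share. In the data the share of CCA-ended reads ran from 2.31 to 74.3% over the libraries, so the rate of false calls may differ there. Without any difference, 4.9% of 1000 simulated permutation tests had a p at or under 0.05.

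Fragments named are the 3 most abundant per end, those called by edgeR and those from nt 1. The members, lists and tests were chosen with earlier results of these data known. Alternatives were each library left out, libraries of at least 1000 reads, a replicate block, other denominators and first bases, a log2 ratio (pseudocount 0.5), TMM, DESeq2, no filter and gaps at the right.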

Additional observations from a re-analysis of the deposited data

Results flagged for a closer look

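In 18 checks of a measure within the 6 libraries of a type, 2 libraries lay far from the other 5, and chance alone flags about 1 in 20 such checks. In C mtDNA, HC replicate 1 had the highest share of reads that lacked the whole tail, 0.273%, where the other 5 libraries lay at 0.0587% or below. It rests on 2 of 733 reads. In F mtDNA, CF replicate 1 had the highest share of that kind, 0.165%, from 3 of 1815 reads, where the others lay at 0.0153% or below.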

How the results depend on the processing

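Depth limits the rarer ends: 6 of 18 libraries held no read that lacked all 3 nt, and 3 none that lacked 2. No adjusted p of the 18 tests by mtDNA type passed 0.05 under any setting run. With the replicate block, the ratio of CC-ended reads in C against H had an adjusted p of 0.250, and the block changed no call among these 18 tests. In edgeR the block left the counts of incomplete-tail fragments called unchanged. There FF against CF had 13 of 67 fragments called lower in FF, beside 23 without the block. In 0 of the 9 pairs of groups checked were all correlations between libraries of the same replicate number above 0.1 (range -0.50 to 0.62). With libraries this small, that check cannot show whether some shared a batch. As a share of reads that lack 0 to 3 nt, the differences from H changed sign, to 10.9 points in C and 3.28 in F for CC-ended reads and to 0.558 and 0.467 for reads lacking 2 nt, with 0.0910 in C against F. In libraries of at least 1000 reads, C against F was -0.0120 for the share lacking 3 nt and 0.0564 for the ratio lacking 2 nt, which was 0.408 over all starts. In the same libraries wild type minus MNX was -0.0290 (share lacking 3 nt), -0.240 and -0.00813 (ratios lacking 2 and 3 nt). Leaving out 1 library at a time, C minus F ranged from -0.00575 to 0.0622 for the share lacking 3 nt and -0.495 to 0.00135 for the ratio lacking 2 nt, F minus H from -0.147 to 0.0813 for the share lacking 2 nt, and wild type minus MNX from -0.596 to 0.0819 for the CC-ended share. The wild-type difference in the CC-ended ratio ranged from 9.17 to 19.2 (permutation test, adjusted p of 0.0240 to 0.432). It passed (adjusted p = 0.0255 and 0.0240) without CC replicate 2 or CH replicate 3, and in none of the other 17 of 19 settings. In libraries of at least 1000 reads it was 11.4. The order of the 3 ends kept its calls in all 20 settings each. The differences of the runs lost theirs on the log2 scale (0.61 and 0.40) and, against starts past them, without the first A (2.58). Incomplete-tail fragments called by edgeR numbered 1 in C against H and 1 in F against H with TMM, 3 (all higher in C) and 0 with DESeq2, and, with gaps at the right, 0 in C against F and 1 in FF against CF. With those gaps 6 were tested, and 0 and 23 of all 68 fragments were called in these 2 comparisons. Leaving out 1 library, the incomplete-tail fragments called ranged from 1 to 4, 1 to 5 and, in FF against CF, 0 to 1. The number tested then changed as well. The C against H count was 1 of 9 without HC replicate 3, with 2 higher and 17 lower among all 73 fragments. The F against H count was 1 of 9 without CH replicate 3, with 1 higher and 23 lower among all 78. It was 5 of 9 without FF replicate 3 or HH replicate 2, and 5 of 10 without CF replicate 3 or CH replicate 1. All fragments called there numbered 2 higher and 26 lower of 73, 11 and 30 of 73, 4 and 30 of 78, and 2 and 21 of 78. That of FF against CF was 1 of 10 without CF replicate 2, with 1 higher and 27 lower among all 79. Of the named calls, nt 29 in C against H was 0.17 with DESeq2, and nt 14 in F against H ranged from -2.94 to 0.73 with 1 library left out. The causes were not tested.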
